A study of Homo sapiens with 32 samples.

Results

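Cultures of the stage named pancreatic progenitors (S4) in the study were profiled by m6A-seq in 2 human embryonic stem cell lines, H1 and MEL1. That name is the stage label and was not derived here from markers, in which the lines differed. The S4 methylome consisted of 8 of the 32 libraries in the study, chosen by their stage label: 4 IP libraries, made from fragments pulled down with an antibody to m6A, and 4 input libraries, with replicates 1 and 2 of each line. The other 24 libraries were undifferentiated cells (S0), posterior foregut cells (S3) and immature β-like cells (S6) of the same lines. The cultures were differentiated by a directed protocol toward β-cells. Each input was saved from the fragmented mRNA of the same preparation before immunoprecipitation, so IP and input were compared within a preparation.

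N6-methyladenosine (m6A) is a common internal modification of mRNA. It is placed by a methyltransferase complex in which METTL3 carries the catalytic activity and METTL14 supports RNA binding, with WTAP, VIRMA, ZC3H13, CBLL1, RBM15 and RBM15B as partners. It can be removed by the demethylases FTO and ALKBH5, and it is bound by readers such as the YTH-domain proteins, which affect splicing, translation and decay of the marked transcripts. Pancreatic progenitors are marked by transcription factors such as PDX1 and SOX9 and give rise to endocrine, ductal and acinar cells.

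The deposited table listed 26104 merged peaks over 7986 gene identifiers, and the median gene had 2. Each peak is named by its gene and its listed position within the gene model. Enrichment is the log2 ratio of IP to input after TMM normalization, so a value of 0 stands for the average merged peak and not for an absence of m6A. A peak was called at an adjusted p under 0.1 and a difference of at least 2-fold, by the quasi-likelihood test of edgeR after Benjamini-Hochberg adjustment, with the preparation as a block. Errors after fitted values are standard errors over the 4 S4 preparations, or from the fit of all 32 libraries for differences between stages.

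The H1 IP libraries held 11661733 and 13999180 reads and the MEL1 IP libraries 2483580 and 2378881, while the S4 inputs held 2652830 to 5283067. No IP read was found in 8.77% to 13.8% of the merged peaks in H1 and 21.4% to 23.7% in MEL1. Among peaks with at least 50 input reads, 4.16% and 2.92% had no IP read in the H1 S4 preparations. In H1 at the other stages this share was 0.123% to 0.356%. In MEL1 it was 5.76% and 5.46% at S4 and 1.20% to 3.39% at the other stages. Replicate libraries differed by more than sampling noise, with a chi-square per degree of freedom of 4.56 to 16.8.

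PDX1 had an input level of 21.5 and 19.5 CPM (input counts scaled to library size and summed over its peaks) in H1 and 16.8 and 17.3 in MEL1, above the 0.206 to 0.682 of the S0 libraries. Of the 24 progenitor regulators with a peak, 17 had every S4 input above every S0 input, TCF7L2 alone had every S4 input below, and 6 overlapped, beside 16.2% above and 15.3% below over all 7986 transcripts. ONECUT1 was at 27.9 and 30.7 CPM in H1 but 1.26 and 1.11 in MEL1, against 5.56 to 15.6 at S0. NKX6-1 and PTF1A were not analysed here. The cultures of the lines differed in markers of other cell types. The summed level of the 7 hepatic genes with a peak, of 15 listed, was 179 to 240 CPM in H1 and 76080 to 77960 CPM in MEL1, where AFP reached 22480 and 26650 CPM. ALB and TTR, which also define hepatic cells, were not analysed here. The 4 neural genes with a peak, of 10 listed, summed to 2078 to 2659 CPM in H1 and 610 to 734 CPM in MEL1, mostly from NES. The 11 pluripotency genes with a peak, of 15 listed, summed to 1970 to 2389 CPM in H1 and 662 to 664 CPM in MEL1. SOX2, a gene that neural and foregut cells also express, held 1243 and 1070 CPM of these in H1 and 181 and 205 in MEL1. The 4 mesenchyme genes with a peak, of 10 listed, summed to 68.4 to 83.7 CPM in H1 and 708 to 773 CPM in MEL1. The part of these differences in the results on the lines was not tested, and in bulk RNA fewer cells of a type cannot be told apart from less RNA per cell.

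At S4 the highest m6A enrichment among nuclear-encoded genes lay in peaks of ZNF503, MYO15B, SOX1, RBFOX2, NOG and PTCH1. Peaks of HDGF, EIF4H, PRDX1, KPNB1 and GAPDH were among the lowest, and the mitochondrially encoded RNAs were low throughout. Of 26054 peaks tested, 3423 (13.1%) were called higher in IP than in input and 6051 (23.2%) lower, and the median log2 enrichment was -0.57. The normalization sets the zero of the scale: of all calls, 36.1% were higher with TMM, 32.4% with RLE and 44.9% with library totals. After edgeR's filterByExpr, which left 18460 peaks, 47.3% were higher. DESeq2, the tool of the study, called 4062 peaks higher and 9187 lower.

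The peak at position 1998 of ZNF503, a zinc-finger transcriptional repressor, was the highest of the peaks ranked by this rule. Its IP reads against input reads were 27945 against 93 and 17590 against 147 in H1, and 40 against 1 and 88 against 7 in MEL1. IP exceeded input by a log2 value of 5.27 ± 0.72 (adjusted p = 0.00254). All 4 preparations lay above the average peak, from 3.00 to 6.66, with both H1 values above both MEL1 values.

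RBFOX2, a regulator of splicing, had the reverse order between the lines. At position 7865 its IP reads against input reads were 5730 against 285 and 8126 against 419 in H1, and 25643 against 124 and 15485 against 136 in MEL1. Although the MEL1 IP libraries were the shallower ones, they held more reads of this peak. The log2 enrichment was 4.74 ± 0.90 (adjusted p = 0.00827), from 2.77 and 3.10 in H1 to 6.90 and 6.25 in MEL1. Of the 5 tested RBFOX2 peaks, 3 were called higher and 2 lower.

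Developmental regulators among the highest peaks included NOG, a secreted antagonist of bone morphogenetic proteins, and PTCH1, the Hedgehog receptor. NOG at position 651 held 2155 IP reads against 29 input reads and 1899 against 43 in H1, and 26 against 1 and 32 against 1 in MEL1. Its enrichment of 4.37 ± 0.47 (adjusted p = 0.00101) had the least spread of the 10 peaks, from 3.50 to 4.63. PTCH1 at position 15992 had 4.33 ± 0.79 (adjusted p = 0.00713), with 13 and 71 input reads in H1 and 1 and 0 in MEL1.

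SOX1, a neural transcription factor, had an enrichment of 4.77 ± 0.62 at position 1301 (adjusted p = 0.00211), but MEL1 contributed only 3 and 15 IP reads and no input read. The remaining highest peaks lay in MYO15B (4.83), ZNF316 (4.22), BTN3A1 (4.13) and a pair of overlapping genes, PDE4C (4.39) and ENSG00000285188 (4.44). BTN3A1 had no input read in MEL1 against 27 and 29 IP reads, and MYO15B had none in MEL1 replicate 1 against 30. PDE4C and ENSG00000285188 had nearly identical counts, such as 4691 and 4699 IP reads in H1 replicate 1, so their reads cannot be assigned to either gene.

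**Figure D1:**
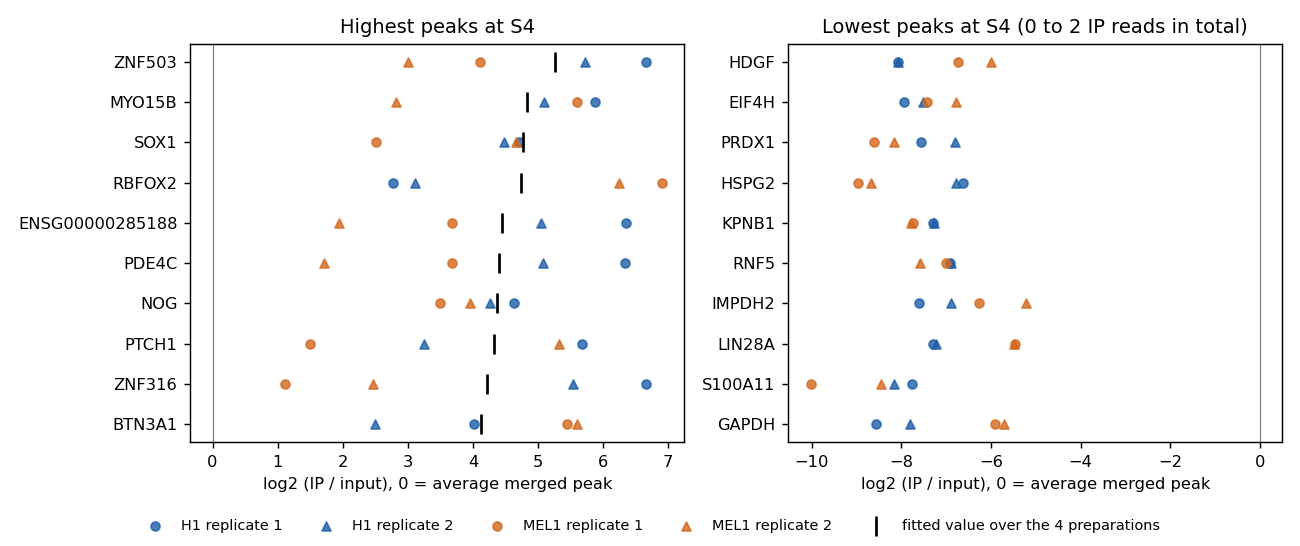
Log2 ratio of IP to input (horizontal axis, 0 is the average merged peak) in each of the 4 S4 preparations for the 10 highest and the 10 lowest nuclear-encoded peaks. Points are single preparations and bars the fitted value, which is left out on the right because it depends on the prior count where IP reads are 0. All points on the left lie above 0 and all on the right below -5. Among the 10 peaks on the left, RBFOX2 has the highest point of each MEL1 replicate.

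The 10 lowest peaks had between 0 and 2 IP reads in the 4 preparations together. The peak at position 473 of PRDX1, a peroxide-reducing enzyme, held 124 and 116 input reads in H1 and 144 and 118 in MEL1 and no IP read in any preparation. Against a floor of 3 reads over the 4 IP libraries, it was at least 373-fold lower in IP than in input (adjusted p = 0.00228). HSPG2, the basement membrane proteoglycan perlecan, held 64 to 186 input reads at position 8405 with no IP read, and was at least 396-fold lower (adjusted p = 0.00210).

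HDGF, EIF4H, KPNB1, RNF5, IMPDH2 and LIN28A also had no IP read, with limits from at least 216-fold lower for LIN28A to at least 389-fold lower for HDGF. KPNB1 encodes an importin of nuclear transport, IMPDH2 an enzyme of guanine nucleotide synthesis and LIN28A an RNA-binding protein of stem cells. GAPDH, the glycolytic enzyme, had 1 IP read at position 2901 against 249 and 332 input reads in H1 and 22 and 21 in MEL1, a ratio of 1392-fold lower (exact 95% interval 250 to 54970, counting error only). S100A11, a calcium-binding protein, had 2 IP reads at position 1. In most of these genes the other peaks were low as well: all 11 tested peaks of KPNB1, all 10 of EIF4H, all 8 of IMPDH2 and of LIN28A, and all 7 of GAPDH and of HDGF were called lower.

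The most and least methylated transcripts were taken from reads summed over all merged peaks of a gene. Of 7984 transcripts, 1718 (21.5%) were called higher in IP than in input and 1922 (24.1%) lower, with a median log2 enrichment of 0.12. With library totals in place of TMM the median was 0.76 and the higher share of calls 68.8%, against 47.2% with TMM. Ranks of transcripts are given for nuclear-encoded genes with a mean of at least 50 input reads and the same direction in all 4 preparations. EXOSC6, a subunit of the RNA exosome, was the highest of these with 13373 IP reads against 107 input reads and 13666 against 429 in H1, and 836 against 33 and 952 against 84 in MEL1. Its enrichment was 3.68 ± 0.40 (adjusted p = 0.000620), and the preparations lay between 2.87 and 4.82. ZSWIM9 followed at 3.61, then the readthrough locus RPL36A-HNRNPH2 at 3.32, whose reads can come from either of its genes. Next were the hypoxia-associated noncoding MIR210HG at 3.27 and SOX1 at 3.23. SOX1 passed the input limit through H1 alone, with 77 and 168 input reads, and had none in MEL1. Its values were 2.82 and 2.57 in H1, while those of MEL1 depend on the prior count.

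PRDX1 was among the 5 lowest of these nuclear-encoded transcripts, at -7.77 ± 0.52 (adjusted p = 0.000131). Its IP reads were 16 and 36 in H1 and 25 and 4 in MEL1, against input reads of 1102 and 1432 in H1 and 1764 and 1809 in MEL1. RMRP, the RNA of the mitochondrial RNA processing ribonuclease, was at -7.70 with 34 and 13 IP reads in H1 and 1 and 1 in MEL1. ENSG00000269900.3 had nearly the same counts as RMRP. MTCO1P12 (-8.31) and MTND1P23 (-8.10) are nuclear copies of mitochondrial genes, so their reads can come from the mitochondrial originals.

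All 15 mitochondrially encoded transcripts with a peak were called lower, with a median of -7.47 and a range from -8.76 for MT-ND3 to -4.32 for MT-ND6. These RNAs took 15.4% to 17.7% of the input reads but 0.0465% and 0.0510% of the IP reads in H1 and 0.388% and 0.442% in MEL1. At the other stages they took 0.396% to 2.25% of the IP reads in H1 and 0.459% to 0.602% in MEL1. MT-CO1, a subunit of cytochrome c oxidase, held 138115 and 181396 input reads in H1 against 929 and 1155 IP reads, and 75811 and 81193 against 948 and 833 in MEL1. Its enrichment was -8.20 ± 0.67 (adjusted p = 0.000224). If these RNAs were taken as the zero of the scale, the median transcript would lie at 7.65 and 7708 transcripts would be called higher, so every "lower" here is relative to the average of the table.

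Peaks of 1 transcript differed among themselves. At least 1 higher peak was found in 2621 transcripts (32.8%), at least 1 lower peak in 2509 (31.4%) and both in 383 (4.80%), while 3237 had neither. In the 5629 transcripts with at least 2 peaks, the median distance between the highest and the lowest peak was 2.98 on the log2 scale (quartiles 1.63 and 4.55). SOX2, a transcription factor of stem cells and foregut, was called higher at positions 751 (1.06) and 1051 (1.17) and lower at 2051 and 2401. At position 1051 IP reads against input reads were 19935 against 3397 and 32044 against 5555 in H1, and 1217 against 307 and 1263 against 392 in MEL1. At position 2401 H1 held 24 and 47 input reads and no IP read, and MEL1 held no read of either kind, so that result rests on H1.

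Transcription factors of the pancreatic progenitor were examined as a list. Of 24 regulators with a peak, of 30 listed, 7 were called higher, 1 was called lower and 16 were not called, beside 21.5% called higher and 24.1% lower over all transcripts. Their median was 0.71 against 0.12 over all transcripts. The 7 were GATA6, ISL1, MNX1, NR5A2, ONECUT1, PDX1 and SOX4, and the lower one was TCF7L2, a Wnt effector with 8 to 11 input reads per library. ISL1, a factor of endocrine cells, was the highest at 2.26 ± 0.82 (adjusted p = 0.0589). Its single peak held 26 IP reads against 2 input reads and 60 against 11 in H1, and 52 against 3 and 46 against 2 in MEL1. GATA6, PDX1 and SOX4 kept their call with each preparation left out in turn. The other calls of this list rested on single preparations: MNX1 was at 0.84 without H1 replicate 1 (adjusted p = 0.367) and 0.96 without H1 replicate 2. NR5A2 was at 1.38 without MEL1 replicate 1 (adjusted p = 0.107) and 1.46 without MEL1 replicate 2, and ISL1 at 1.90 (adjusted p = 0.166) and 1.76, or 2.49 without H1 replicate 1 (adjusted p = 0.108). ONECUT1 lost its call without any of the 4, between 0.85 and 1.61, and TCF7L2 without either H1 replicate or MEL1 replicate 2, between -3.86 and -2.83.

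PDX1, which is required for pancreas formation, was called higher as a transcript at 1.76 ± 0.32 (adjusted p = 0.00448). Its peak at position 651 held 1033 IP reads against 18 input reads and 1234 against 39 in H1, and 145 against 10 and 51 against 12 in MEL1. That peak had 3.22 ± 0.58 (adjusted p = 0.00710), and both H1 values, 4.24 and 3.78, were above the MEL1 values of 3.03 and 1.48. The peak at 951 was also called higher (1.59), whereas those at 1201 (0.98) and 1401 (-0.13) did not pass the test.

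SOX4, a factor of endocrine differentiation, had more reads than any other regulator peak described here, with 32231 and 37639 IP reads in H1 and 7762 and 8372 in MEL1 at position 2901. The enrichment of that peak was 2.16 ± 0.43 (adjusted p = 0.00991). GATA6 and GATA4, zinc-finger factors of endoderm, were called higher at their peaks with most IP reads, at 1.99 and 1.66. So were SOX9 (1.80), FOXA2 (1.38), HNF4A (1.33), SOX11 (1.86), NR5A2 (2.77) and ISL1 (2.60). Choosing a peak by its IP reads favours a higher call, since the test uses the same reads. Of all 86 tested peaks of the list, 20 were called higher and 5 lower, beside 13.1% and 23.2% over all peaks. FOXA2 and GATA4 each also had 1 peak called lower. ISL1 rests on 2 to 11 input reads per library, and its peak did not pass without MEL1 replicate 1 (2.35) or 2 (2.19). The peaks with most IP reads of FOXA1 (0.13), HES1 (0.10), MEIS1 (0.07) and HHEX (-1.56) did not pass the test. That of MNX1 (2.20, adjusted p = 0.104) missed it. Of the 5 tested FOXA1 peaks, 2 were called higher, and of the 3 tested HES1 peaks, 2 were called lower.

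**Figure D2:**
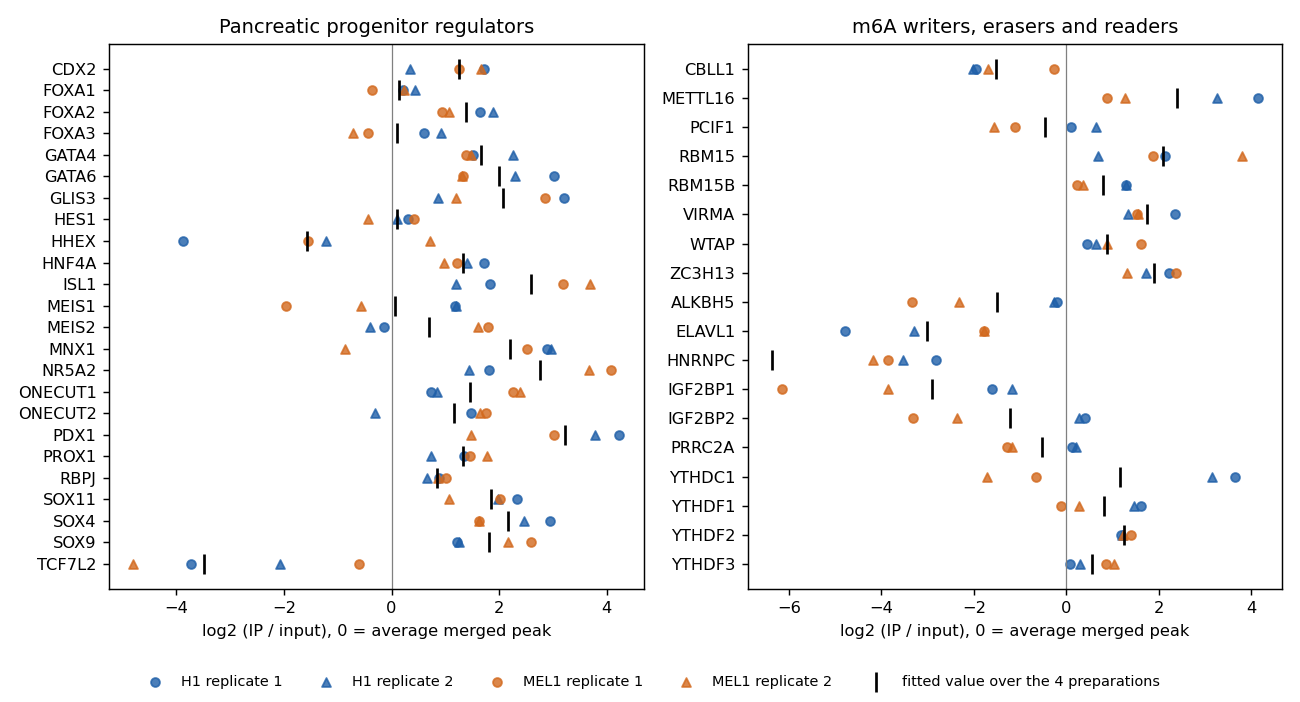
Log2 ratio of IP to input (horizontal axis, 0 is the average merged peak) of the peak with most S4 IP reads in each progenitor regulator (left) and each m6A writer, eraser or reader (right). Points are the 4 preparations and bars the fitted value. PDX1 has the highest fitted value on the left at 3.22, and the points of YTHDC1 and IGF2BP2 separate by line.

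The transcripts of the m6A machinery were examined in the same way. Of 8 writers with a peak, 3 were called higher and 1 lower, with a median of 0.72, and of 10 erasers and readers none was called higher and 6 lower, with a median of -1.41. Over all transcripts 21.5% were called higher and 24.1% lower, with a median of 0.12. METTL3, METTL14 and FTO were not analysed here. RBM15, which helps recruit the methyltransferase to RNA, was called higher at 1.65 ± 0.49 (adjusted p = 0.0306). METTL16 (1.61), a separate methyltransferase, and VIRMA (1.41) were called higher as well. Of the 7 tested METTL16 peaks, 1 was called higher and 3 lower. The METTL16 transcript was at 2.88 and 2.26 in H1 and 0.55 and 0.69 in MEL1. CBLL1 was called lower at -1.97 ± 0.49 (adjusted p = 0.0160). Its peak at position 2551 did not pass without H1 replicate 1 (-1, adjusted p = 0.302), H1 replicate 2 (-1.06) or MEL1 replicate 2 (-1.44). The RBM15 peak at position 2401 did not pass without MEL1 replicate 1 (2.13) or 2 (1.58). VIRMA lost its call without any of the 4 preparations, with values of 1.26 to 1.56 and adjusted p from 0.145 to 0.346.

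IGF2BP1, a reader that stabilizes its targets, was called lower in each of its 9 tested peaks and as a transcript at -3.48 ± 0.38 (adjusted p = 0.000654). Its summed IP reads against input reads were 399 against 914 and 548 against 1138 in H1, and 36 against 511 and 101 against 607 in MEL1. IGF2BP2 (-1.60), ALKBH5 (-1.995), PRRC2A (-1.22), ELAVL1 (-3.33) and HNRNPC were the other 5 called lower. HNRNPC had 4 to 11 input reads per library and no IP read, at least 28.0-fold lower as a transcript. Of the IGF2BP1 peaks, the one at position 51 did not pass without MEL1 replicate 2 (-2.48, adjusted p = 0.129). The HNRNPC peak did not pass without MEL1 replicate 2 (adjusted p = 0.101) or H1 replicate 2 (adjusted p = 0.162). The ELAVL1 peak was at -2.01 without H1 replicate 1 (adjusted p = 0.210) and -2.52 without H1 replicate 2.

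YTHDF2, a reader linked to decay, had a single peak that was called higher at 1.25 ± 0.35 (adjusted p = 0.0313) with all 4 preparations between 1.18 and 1.39, though it missed the threshold without MEL1 replicate 2 (adjusted p = 0.104). As a transcript it reached 0.93 (adjusted p = 0.0269), under the 2-fold threshold. YTHDC1, the nuclear reader, was at 1.20 and did not pass (adjusted p = 0.112). Its peak at position 6883 held 4660 and 4184 IP reads in H1 but 104 and 43 in MEL1, with 126 and 209 input reads in H1 and 95 and 96 in MEL1.

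Signalling pathways were counted beside the 21.5% called higher and 24.1% called lower over all transcripts, and differences between pathways were not tested. Of 35 TGF-beta and BMP transcripts, 15 were called higher and 5 lower (median 0.80, from NOG at 3.51 to ID1 at -3.31). Of 14 Hedgehog transcripts, 5 were higher and 1 lower (median 0.73), with the ligand IHH the highest at 2.64. Of 35 Wnt transcripts, 11 were higher and 10 lower (median 0.59), from WNT5B at 3.30 to TCF7L1 at -5.18. Of 29 Notch transcripts, 3 were higher and 10 lower (median 0.03), with the γ-secretase subunit NCSTN the lowest at -4.65.

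Of 304 ZNF zinc-finger genes, 114 were called higher and 8 lower (median 0.89), against 21.5% higher and 24.1% lower over all transcripts, the shares beside which the counts that follow stand. Called lower were 18 of 19 housekeeping genes (median -3.87), 11 of 13 proteasome subunits (median -2.73), 14 of 23 nuclear-encoded respiratory chain subunits (median -2.42) and 10 of 20 cytosolic ribosomal proteins (median -2.79). Of 44 mitochondrial ribosomal proteins, 21 were lower and 5 higher (median -1.08). Of 48 chromatin regulators, 6 were higher and 11 lower, and of 126 solute carriers 19 were higher and 27 lower, with medians of -0.08 and -0.06, shares of lower calls close to that of all transcripts. Of 10 posterior foregut genes 3 were higher and none lower (median 0.93), of 11 pluripotency genes 3 higher and 4 lower (median -0.50), of 7 hepatic genes 1 higher and 5 lower (median -2.93), and of 5 endocrine genes 1 higher and 3 lower (median -2.18). Of 4 neural genes and 4 mesenchyme genes, 2 each were called lower.

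How far the shallow MEL1 libraries followed H1 was first described by correlation of log2 enrichment across the 26054 peaks, which are not independent replicates. Pearson's r was 0.878 between the H1 replicates, 0.662 between the MEL1 replicates and 0.504 to 0.515 between the lines. With all IP libraries thinned to the same depth, r between the lines was 0.520 to 0.535. Agreement rose with input depth, from an r of 0.298 for peaks under 10 mean input reads to 0.808 for peaks with at least 300. Over transcripts r was 0.602 to 0.664 between the lines.

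Correlation between the lines was lower at S4 than at the other stages. Over all 16 preparations r between the lines ranged from 0.492 to 0.502 at S4, compared with 0.676 to 0.724 at S0, 0.827 to 0.836 at S3 and 0.841 to 0.848 at S6. With every IP library thinned to the depth of the shallowest, S4 was at 0.515 to 0.533 and the other stages at 0.691 to 0.847. The input libraries of the lines also correlated least at S4, with r of 0.779 to 0.801 in log2 CPM. H1 S4 preparations had r of 0.751 to 0.756 with H1 at S6, while MEL1 S4 preparations had 0.598 to 0.633 with MEL1 at S6. Over S0, S3 and S6 of the same line, H1 S4 had 0.683 to 0.756 and MEL1 S4 had 0.598 to 0.665. Those stages had 0.877 to 0.905 with each other in H1 and 0.594 to 0.817 in MEL1.

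**Figure D3:**
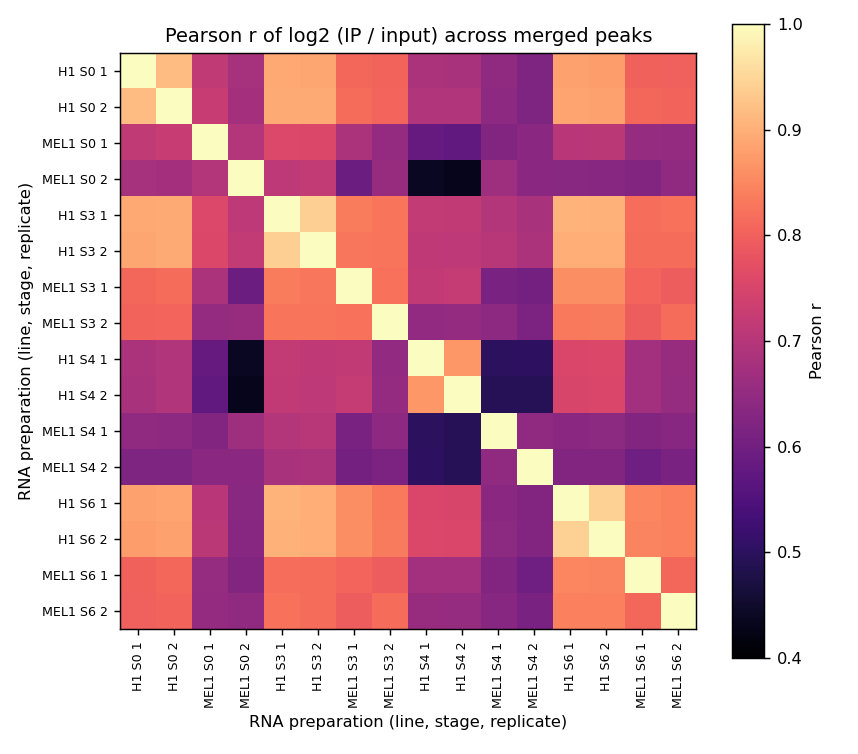
Pearson's r of log2 enrichment across merged peaks for all pairs of the 16 preparations (colour scale from 0.4 to 1). The S4 blocks are the darkest between the lines, at 0.492 to 0.502, apart from H1 S4 with MEL1 S0, which reaches 0.432 to 0.583.

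Tested separately, H1 gave 6108 higher (23.6%) and 7838 lower (30.3%) of 25834 peaks, and MEL1 gave 3110 higher (13.1%) and 5592 lower (23.5%) of 23789. The higher count of MEL1 was 1660 with DESeq2 and 5422 with library totals, and the overlaps given next were computed with TMM and edgeR only. In the 23601 peaks tested in both lines, 73.6% had the same sign. Of 5806 peaks called higher in H1, 77.8% were above 0 in MEL1, against 43.3% of all peaks, and of 7463 called lower, 87.1% were below 0, against 56.7%. Peaks called higher in both lines numbered 2080, which is 35.8% of the H1 list and 67.1% of the MEL1 list. Peaks called lower in both numbered 3745, or 50.2% and 67.2%. Opposite calls were made in 218 peaks that were higher in H1 and lower in MEL1 and in 84 of the reverse kind.

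**Figure D4:**
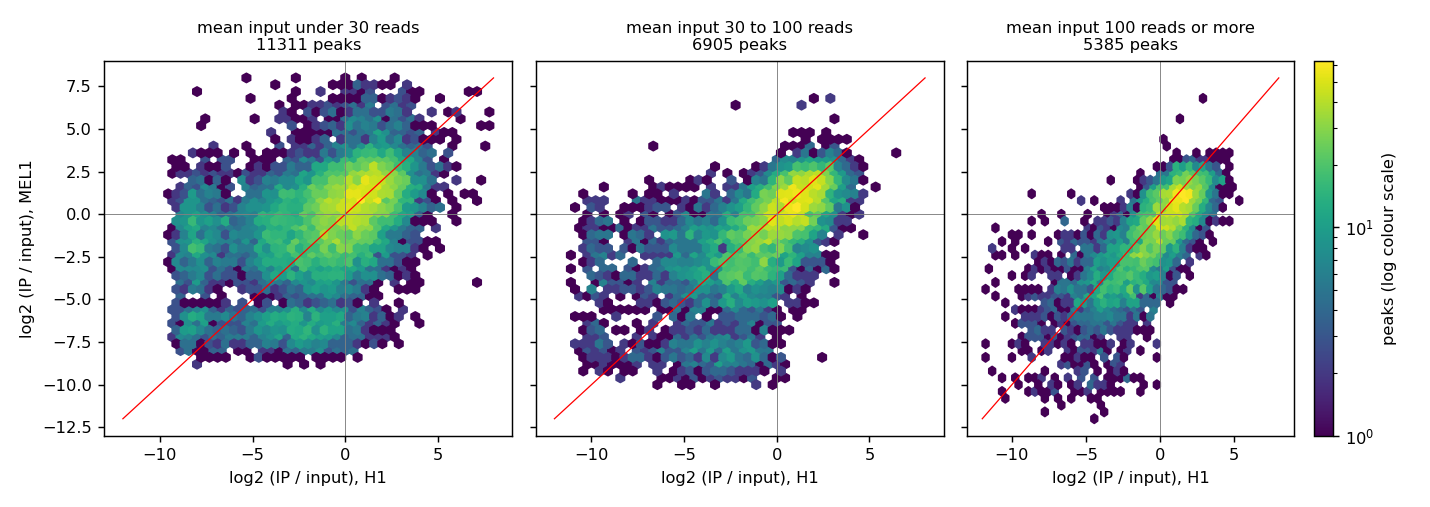
Log2 ratio of IP to input fitted in H1 (horizontal) and in MEL1 (vertical), with peaks split by mean input reads into 3 panels. Colour gives the number of peaks per hexagon on a log scale and the red line marks equal values. The cloud narrows toward the line with depth, and the band at the bottom holds peaks without a MEL1 IP read.

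The difference between the lines was tested as the interaction of line and library type. Enrichment was called higher in H1 in 3533 peaks (13.6%) and higher in MEL1 in 1671 (6.41%). By the adjusted p alone, with no limit on the fold, the shares were 13.6% and 6.43%. This balance was not stable: 67.9% of the calls were higher in H1 with TMM, 25.5% with library totals, 58.1% with RLE, 56.0% with DESeq2, 48.1% with filterByExpr and 48.1% among peaks with at least 10 mean input reads in each line. The count higher in H1 was 1105 without H1 replicate 1 and 1597 without H1 replicate 2. The marker differences of the lines given above stand beside these calls.

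Among called peaks with a mean of at least 10 S4 input reads, RPS6KA2 at position 2344, in a ribosomal S6 kinase gene, had the largest difference toward H1 (adjusted p = 0.00148). It held 935 and 817 IP reads in H1, with 45 and 87 input reads, and no IP read in MEL1, with 28 and 42 input reads. SH3D21 and NPIPB11 also had no MEL1 IP read. Toward MEL1, the largest were in TENM3, JARID2 and BTBD3, all without a MEL1 input read, so no fold is given for them. BTBD3 at position 1601 held 20 and 11 IP reads in MEL1 against 0 and 3 in H1, with 18 and 22 input reads in H1. It was not called without H1 replicate 1 (adjusted p = 0.275) or H1 replicate 2 (0.106), and JARID2 was not called without either H1 replicate or MEL1 replicate 1 (adjusted p = 0.428 to 1).

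S4 was compared with the mean of the other stages over all 32 libraries. Enrichment was called higher at S4 in 313 of 26104 peaks (1.20%) and lower in 3116 (11.9%). These counts depended on single libraries and on scaling. The lower count was 451 without H1 replicate 1, 1152 with RLE, 849 with all IP libraries thinned to one depth and 7832 in H1 only. The higher count was 178 without H1 replicate 1, 163 without H1 replicate 2, 652 without MEL1 replicate 1 and 516 without MEL1 replicate 2. Of all calls, 9.13% were higher with TMM, against 34.2% with RLE, 40.3% with DESeq2 and 38.3% after thinning. The preponderance of lower peaks is therefore stated only for this normalization.

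Among the peaks called higher at S4 that had a mean of at least 10 S4 input reads, RBFOX2 at position 7865 had the largest difference, 7.50 ± 0.81 on the log2 scale (adjusted p = 0.000457). Fitted over all libraries, its enrichment at S4 was 4.74, whereas S0 had -1.87, S3 -4.30 and S6 -2.14. Of the other highest peaks at S4, ZNF503 (4.50 ± 0.95, adjusted p = 0.00923) and NOG (2.33 ± 0.73, adjusted p = 0.0562) were also called higher than the mean of the other stages. Both, like RBFOX2, were among the peaks named for high S4 values. The difference between stages uses the same values, so it leans upward by selection. ZNF503 stood at 5.48 at S4, -0.86 at S0, 1.43 at S3 and 2.36 at S6, and NOG at 4.39, 0.86, 2.66 and 2.68. The peak of PDX1 at position 651 was higher than that mean by 1.998 ± 0.67 (adjusted p = 0.0680), mostly through S0 (-1.29), where its input level was below 1 CPM, since S3 (2.61) and S6 (2.44) lay nearer to S4 (3.25). Differences between S4 and single stages were not tested. ENSG00000281181 and RN7SL5P, a copy of the signal recognition particle RNA, were called higher than at other stages although both lay below the average peak at S4, and only MEL1 was above 0 there. ENSG00000281181 was not called without MEL1 replicate 1 (4.13, adjusted p = 0.179) or MEL1 replicate 2 (4.17, adjusted p = 0.186).

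By the same input limit, GPAM, SOX2 and CCDC144NL-AS1 had the largest called differences in the other direction. GPAM, an enzyme of triglyceride synthesis, had no IP read at position 3509 in the S4 preparations against 5 to 24 input reads, at least 36.4-fold lower in IP than in input. SOX2 at position 2401 was at least 52.8-fold lower in IP on the reads of H1 (adjusted p = 0.00239 for the difference between stages). In their peak with most IP reads, HES1 (-1.26), ONECUT1 (-1.84), RBPJ (-1.25) and FOXA3 (-1.21) were called lower at S4 than elsewhere. So were MEIS2 (-1.24) and ONECUT2 (-1.04). Of all 86 tested peaks of the progenitor regulators, 10 were called lower and 1 higher, beside 11.9% and 1.20% over all peaks. The share of lower calls was thus close to that of all peaks.

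**Figure D5:**
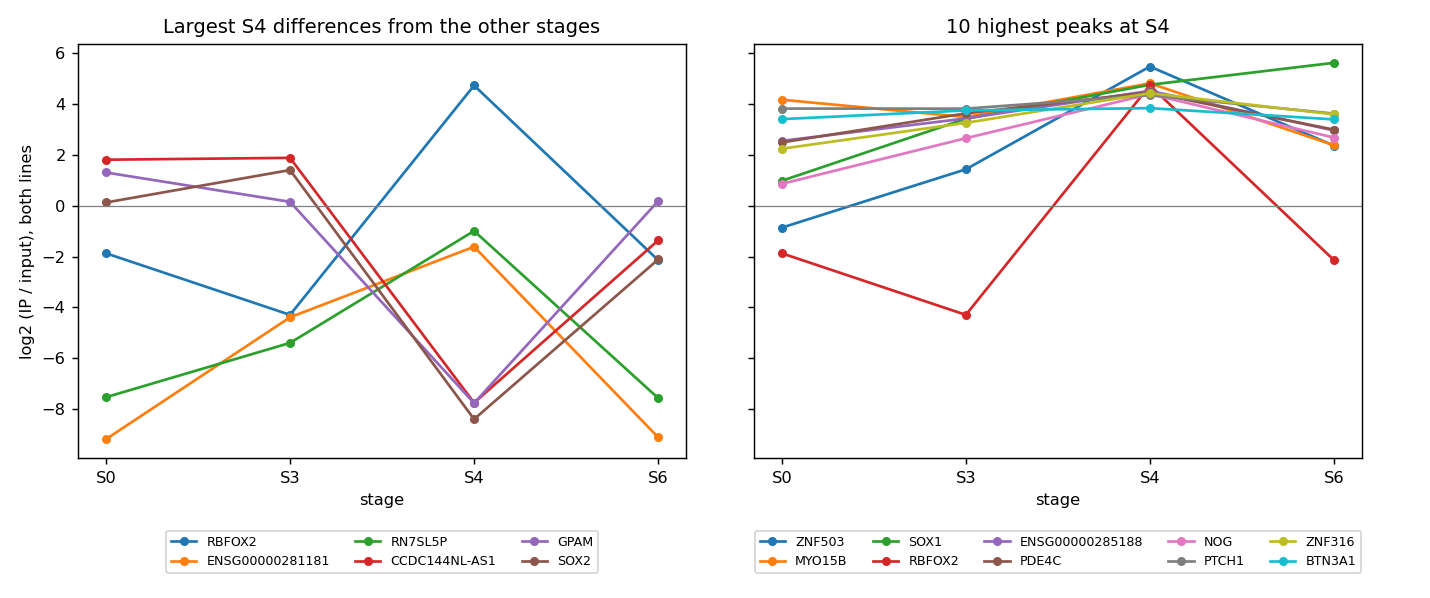
Fitted log2 ratio of IP to input at S0, S3, S4 and S6 (horizontal axis, stages), over both lines, for the peaks with the largest S4 differences (left) and the 10 highest S4 peaks (right). S4 values of GPAM, SOX2 and CCDC144NL-AS1 rest on 0 IP reads and depend on the prior count. RBFOX2 is the one of the 10 highest peaks that lies below 0 at S0, S3 and S6, and ZNF503 lies below 0 at S0.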

How the data were processed

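With MeRIPtools, the authors called peaks on 50-bp bins along Ensembl version 94 gene models, merged them and counted the reads of each library in each merged peak. The deposited values are raw counts, without normalization. The aligner and the genome build are not given in the sources used here, and positions could not be converted to coordinates, so no sequence is shown. Of 7986 gene identifiers 7946 were matched to a symbol.

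Tests were run with edgeR 4.0.16 and DESeq2 1.42.0 under R 4.3.3, and figures were made with matplotlib 3.10.9 (Python 3.11.15). Peaks or transcripts with a total of at least 10 reads were tested with edgeR's quasi-likelihood test, TMM normalization and the preparation as a block. The study used DESeq2, which was an alternative here. A standard error is the log2 value divided by the square root of F. Values of single preparations are log2 CPM ratios with a prior count of 1. Where IP reads were 0, limits were set against 3 reads over the 4 IP libraries, and intervals cover counting error only.

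IP and input of the same number share a preparation, so they are paired by construction. Across peaks, the deviations of input and IP of the same number correlated by 0.015 in H1 and 0.049 in MEL1. The study calls the replicates independent biological samples.

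Named peaks were the 10 highest and 10 lowest called peaks of nuclear-encoded genes (mean input of at least 10 reads, same direction in 4 preparations), the 5 highest and 5 lowest transcripts of nuclear-encoded genes (mean input of at least 50, same direction in 4 preparations), the members of 4 lists, and the 3 largest differences in each direction between the lines and between stages. The peaks of SOX2 at positions 751, 1051 and 2051, those of PDX1 beyond the first, and AFP were chosen after their values were seen. Some list members are not reported here and were left out of their list's counts. The members and lists were chosen with earlier results of these data known. The tests were checked on simulated counts. Most simulated 4-fold changes between IP and input were missed, so a peak that was not called may still differ. Alternatives were RLE, library totals, DESeq2, other filters, thinning, no block, mitochondrial scaling, all libraries, single lines and each preparation left out.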

Additional observations from a re-analysis of the deposited data

Results flagged for a closer look

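In 5 of 88 named peaks, 1 preparation stood apart from the other 3 in log2 enrichment by Dixon's test, which flags about 1 in 20 groups by chance. These were SOX1 in MEL1 replicate 1 (2.52), RNF5 in MEL1 replicate 2 (-7.58), GATA4 in H1 replicate 2 (2.26), MNX1 in MEL1 replicate 2 (-0.87) and ONECUT2 in H1 replicate 2 (-0.30).

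In 40 named peaks the enrichment differed between H1 and MEL1 in the test of the interaction (edgeR's quasi-likelihood test, adjusted p under 0.1), 20 in each direction, beside 13.6% of all 26054 peaks that were higher in H1 by that test and 6.43% that were lower. The 40 include 6 peaks that were named for this difference. As H1 minus MEL1 on the log2 scale, the difference was positive in YTHDC1 (4.57), ZNF316 (4.11), IGF2BP1 (3.19), IGF2BP2 (3.17), PDE4C (3.11), ENSG00000285188 (2.92), ZNF503 (2.79), METTL16 (2.62), ALKBH5 (2.58), MEIS1 (2.48), MYO15B (2.23), PCIF1 (1.74), YTHDF1 (1.46), PRRC2A (1.40), GATA6 (1.33), SOX4 (1.08) and RBM15B (0.99). It was negative in RBFOX2 (-3.64), NR5A2 (-2.26), MEIS2 (-1.97), ENSG00000281181 (-7.45) and RN7SL5P (-4.64).

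The difference was also negative in 12 of the 15 named mitochondrially encoded peaks, in MT-ND4 (-2.76), MT-ND2 (-2.61), MT-ND5 (-2.58), MT-ATP8 (-2.52), MT-ATP6 (-2.48), MT-ND4L (-2.20), MT-RNR1 (-2.06), MT-CYB (-2.04), MT-RNR2 (-2), MT-CO2 (-1.81), MT-ND1 (-1.51) and MT-CO1 (-1.45). The 6 peaks named for the size of their line difference were RPS6KA2 (11.9), SH3D21 (11.41), NPIPB11 (11.03), TENM3 (-15.62), JARID2 (-13.45) and BTBD3 (-12.74). Each of the 6 had 0 reads in both MEL1 IP libraries or in both MEL1 input libraries, so these values depend on the prior count and give no fold. The hepatic and neural marker levels and the IP depth of the lines differed as well, and their part in these differences was not tested.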

How the results depend on the processing

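Scaled to mitochondrially encoded peaks, 21431 peaks were called higher and 5 lower, and 7708 transcripts higher and 0 lower, where the median peak lay at 6.62. Under that scaling the sign turned for the peaks of HHEX (5.45), CBLL1 (5.70), PCIF1 (6.73), ALKBH5 (5.70), ELAVL1 (4.13), IGF2BP1 (4.23), IGF2BP2 (5.97) and PRRC2A (6.66). It also turned for the transcripts of FOXA3 (7.17), HES1 (6.97), HHEX (5.46), MEIS1 (7.44), TCF7L2 (3.56), CBLL1 (5.58), PCIF1 (6.73), ALKBH5 (5.51), ELAVL1 (4.13), IGF2BP1 (4.07), IGF2BP2 (5.91), PRRC2A (6.29) and YTHDF1 (7.29). No called value of a named peak or transcript changed sign under any other alternative run. Values that were not called, such as the peaks of FOXA1, FOXA3, HES1 and MEIS1, crossed 0 under some of them.

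DESeq2 called 9187 peaks lower at S4, 1660 higher in MEL1 alone and 1563 higher at S4 than at other stages. With library totals, 3047 transcripts were higher, 1303 peaks were higher in H1 and 3814 in MEL1, and 5422 were higher in MEL1 alone. The count higher in H1 was 2290 with filterByExpr and 2051 with at least 10 mean input reads in each line, the latter added after seeing the data. For S4 against other stages, RLE gave 599 higher and 1152 lower, H1 only 3949 and 7832, and thinning of all IP libraries, also added later, 526 and 849. Leaving out each preparation gave 1105 to 4275 peaks higher in H1, 163 to 652 higher at S4 than elsewhere and 451 to 3684 lower.

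Without the replicate block, the pairing by preparation being known, 4270 peaks were higher and 7142 lower at S4, 2581 were higher in MEL1 than in H1, and 606 were higher at S4 than at other stages. Of these, only the last 2 moved by over 1.5 times.

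The mean correlation between the lines (Pearson, then Spearman) was 0.575 and 0.553 with a prior count of 5, 0.552 and 0.577 with at least 10 mean input reads, 0.633 and 0.613 over transcripts, and 0.528 (Pearson) after thinning. The causes were not tested.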
